A study of Mus musculus with 30 samples.

Results

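The very broad peaks of the ventral hippocampus were the regions of open chromatin at least 10000 bp wide on chromosomes 1 to 19. Of 257149 peaks counted by bulk ATAC-seq, 1521 met this width, and 255095 peaks lay on the same chromosomes. They were chosen by width alone, with no use of how their counts changed. ATAC-seq uses a transposase that cuts and tags DNA where it is not packed tightly, so a high count marks accessible chromatin. Nuclei came from 30 mice, with 1 ventral hippocampus per library. The mice had either been handled (lifted as before restraint) or restrained every day for 10 days, after which all were housed singly. They were then taken at 0 min, from the home cage with no acute restraint, or 45 min after a new restraint in a tube began. At 0 min there were 8 handled and 8 chronically restrained mice, and at 45 min 7 of either history. Females and males were present in all 4 groups, and the labels divided the libraries into 4 batches. Strain and age were not given in the sources used here.

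Open chromatin usually forms narrow peaks at enhancers and promoters, a few nucleosomes wide. Wide stretches of open chromatin are known from gene-dense regions and from genes that a cell type transcribes heavily. Restraint raises corticosterone, which activates the glucocorticoid receptor, a transcription factor that binds DNA near its target genes and can open chromatin there. Neuronal activity opens chromatin at other sites through transcription factors made by immediate early genes.

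Promoters inside the very broad peaks were read from RefSeq entries on GRCm38.p6, each 250 bases before to 50 bases after a transcription start, on the strand of the gene. The first 3 are shown because they mark starts inside the 2 very broad peaks with the smallest p for acute restraint. The promoter of Ddit4 is shown because that gene, a target of the glucocorticoid receptor, lies in a very broad peak beside another that rose. Capitals mark the letters TGANTCA, the site of AP-1 factors, or GGGCGG, the GC box of Sp factors, on either strand.
E230001N04Rik, chr17:28522406-28522705, plus strand: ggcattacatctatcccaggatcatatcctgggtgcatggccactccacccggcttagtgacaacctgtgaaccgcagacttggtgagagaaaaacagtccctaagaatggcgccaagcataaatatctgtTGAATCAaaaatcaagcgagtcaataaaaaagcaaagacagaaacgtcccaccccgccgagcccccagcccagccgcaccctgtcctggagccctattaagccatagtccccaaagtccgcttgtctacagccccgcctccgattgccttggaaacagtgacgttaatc
Plin4, chr17:56109733-56110032, minus strand: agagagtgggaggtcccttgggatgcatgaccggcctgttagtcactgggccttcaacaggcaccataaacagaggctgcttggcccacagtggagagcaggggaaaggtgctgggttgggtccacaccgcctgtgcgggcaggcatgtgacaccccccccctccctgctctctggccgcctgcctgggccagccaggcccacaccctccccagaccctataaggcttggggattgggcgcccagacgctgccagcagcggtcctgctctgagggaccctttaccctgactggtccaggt
Plin5, chr17:56117499-56117798, minus strand: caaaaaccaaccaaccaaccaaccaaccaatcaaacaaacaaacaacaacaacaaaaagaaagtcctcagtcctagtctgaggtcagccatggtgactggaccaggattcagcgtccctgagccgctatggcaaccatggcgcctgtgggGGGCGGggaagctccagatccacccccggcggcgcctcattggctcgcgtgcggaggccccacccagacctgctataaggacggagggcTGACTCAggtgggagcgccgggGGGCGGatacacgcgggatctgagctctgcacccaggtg
Ddit4, chr10:59951721-59952020, minus strand: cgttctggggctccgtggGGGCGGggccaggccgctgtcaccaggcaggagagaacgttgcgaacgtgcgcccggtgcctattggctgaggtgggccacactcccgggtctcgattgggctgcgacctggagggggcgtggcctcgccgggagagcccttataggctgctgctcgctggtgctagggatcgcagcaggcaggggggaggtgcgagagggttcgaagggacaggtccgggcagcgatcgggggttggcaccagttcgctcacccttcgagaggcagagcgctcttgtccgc

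The Plin4 promoter had a GC content of 65% with 7 CpG dinucleotides, and held none of the motifs searched. The Ddit4 promoter had a GC content of 69% with 26 CpG dinucleotides. The search covered the GC box, the E-box with the letters CACGTG, the cyclic AMP response element with the letters TGACGTCA, the AP-1 site and the palindromic glucocorticoid response element by its consensus letters, on both strands, and none of these holds another. Over all 1949 RefSeq starts inside very broad peaks, which belonged to 1543 genes, the median GC content was 61% and the median number of CpG dinucleotides 19 in 300 bases. All 31365 autosomal entries had medians of 53% and 7, while the 15421 starts in narrower peaks had 60% and 18. GGGCGG was found in 62.1% of the promoters in very broad peaks, in 56.9% of those in narrower peaks and in 36% of all entries. CACGTG was found in 9.13%, 9.17% and 7.14% of the same sets, TGACGTCA in 2.36%, 2.82% and 1.83%, and TGANTCA in 4.82%, 5.34% and 7.85%. Promoters in very broad and in narrower peaks thus had similar medians, both above those of all entries. The exact letters of the glucocorticoid response element stood in 0 of the 1949 windows, and in 3 of all 31365. These windows cover a small part of a very broad peak, and the rest of its sequence was not analysed here.

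Nearly all very broad peaks overlapped genes. Of the 1521, 1461 (96.1%) overlapped a protein-coding gene, 749 (49.2%) overlapped at least 2 and 553 (36.4%) held a whole gene. Among all autosomal peaks the same shares were 70.0%, 1.87% and 0.363%, and among the 3838 peaks from 5000 bp to just under 10000 bp they were 90.5%, 17.5% and 5.89%. A RefSeq start lay inside 930 very broad peaks (61.1%, against 4.99% of all autosomal peaks), and 1163 (76.5%, against 10.3%) reached to within 1 kb of a gene's start or end. A wider region meets more genes at any position, and these shares are not corrected for width. The median width was 14076 bp, with quartiles of 11496 and 18611 bp and a range from 10002 to 73573 bp.

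**Figure D1:**
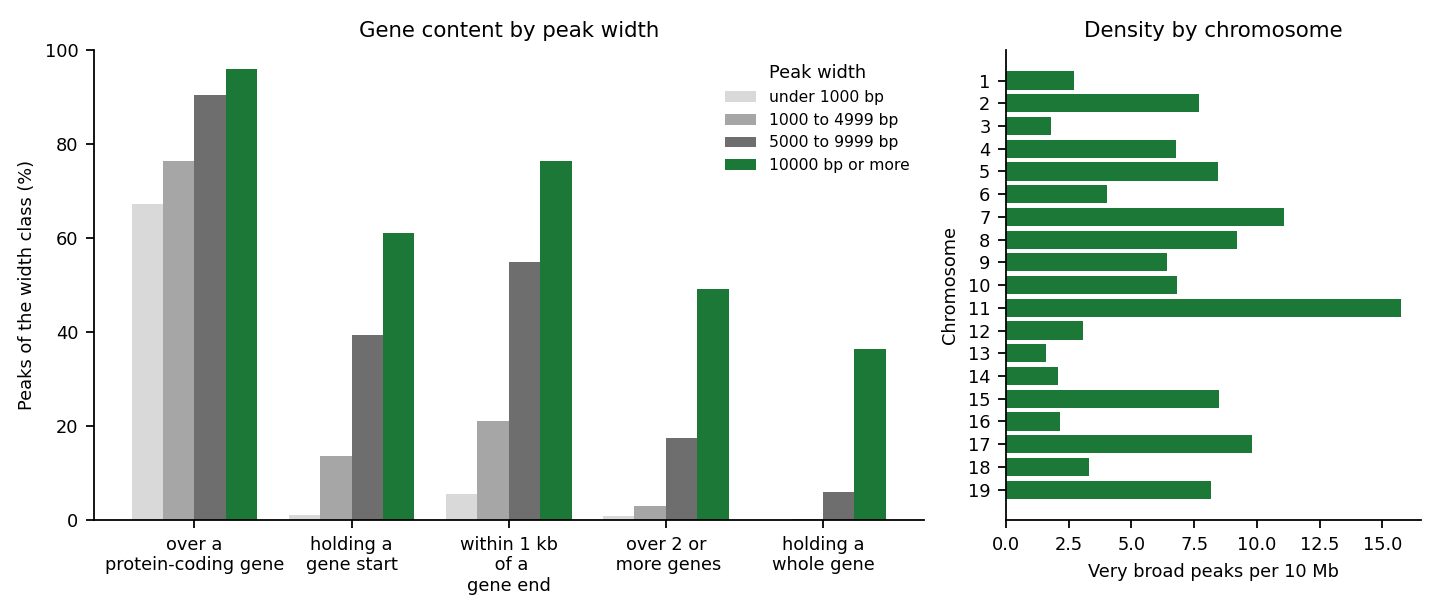
Left, the percentage of autosomal peaks in each of 4 width classes that overlap a protein-coding gene, hold a gene start, come within 1 kb of either gene end, overlap at least 2 genes or hold a whole gene. Right, the number of very broad peaks per 10 Mb of each chromosome; every share is highest in the widest class, and chromosome 11 has the most at 15.7 per 10 Mb.

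Together the very broad peaks touched 2299 of 20665 autosomal protein-coding genes (11.1%), of which 879 lay whole inside a peak. The genes touched were short, with a median length of 11.959 kb against 17.491 kb for all autosomal protein-coding genes. They also touched 372 of 12408 long non-coding RNA genes (3.00%). Long genes were covered in another way, by several peaks in a row. Gse1 was touched by 10 very broad peaks and Rbfox3, which encodes the neuronal splicing factor NeuN, by 8. Cmip held 6, and Abr and Kcnab2 were among those with 5. In all, 320 genes were touched by at least 2 very broad peaks. Single genes were covered almost end to end: 93.5% of Kdm4b, a histone demethylase gene, and 91.3% of Srcin1, which encodes a synaptic regulator of Src, lay in 4 very broad peaks each.

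The peaks were unevenly spread. Chromosome 11 held 192, or 15.7 per 10 Mb, followed by chromosome 7 with 161 (11.1 per 10 Mb). Chromosome 13 held 19, or 1.58 per 10 Mb, and chromosome 3 held 29 (1.81 per 10 Mb). The X chromosome was outside the rule, and its widest peak was 9877 bp, just under the width required. Very broad peaks gathered in clusters, since 612 (40.2%) lay within 10 kb of another and 1216 (79.9%) within 100 kb. The densest megabase, from 80 to 81 Mb of chromosome 10, held 24, and that from 70 to 71 Mb of chromosome 8 held 23. The run with the most peaks at gaps of at most 10 kb held 7 over 152.8 kb of chromosome 10, from Madcam1 to Palm, and included Bsg, which encodes the glycoprotein basigin, and Hcn2, which encodes a pacemaker channel.

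The widest peak, 73573 bp at chr8:70741759-70815332, overlapped 7 genes, among them Rab3a, whose product binds synaptic vesicles before release, and Mast3, a kinase gene. It also had the highest mean level of all, 624.7 CPM (the count scaled to a common library size, with TMM-adjusted library totals). The next, 64307 bp at chr10:80122951-80187258, covered Stk11, Cbarp, Atp5d, Midn, Cirbp, Fam174c and Efna2 with 610 CPM. Next came 56668 bp at chr7:141422550-141479218, a block from Cend1 to Tspan4 with 348 CPM, and 48639 bp over Baiap2 and Aatk with 293 CPM. A peak of 46258 bp on chromosome 18 covered Arsi and Camk2a, the gene of the main calcium-dependent kinase of excitatory synapses, with 319 CPM. Other peaks among the widest or highest were Tjp3 to Tbxa2r (389 CPM), Pwwp3a to Dazap1 (317 CPM), Il4i1 to Med25 (432 CPM), Dlg4, which encodes the postsynaptic scaffold PSD-95, with its neighbours (362 CPM) and Celf5 to Gna15 (333 CPM). One peak of chromosome 18 overlapped 24 genes, the protocadherin gamma cluster, whose genes share their last exons.

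Per unit of length, very broad peaks had moderate signal. Their median was 5.28 CPM per kb, with a range from 2.82 to 12.03, against 4.43 CPM per kb in the peaks from 5000 bp to under 10000 bp and 2.75 over all autosomal peaks. The highest narrow peaks, under 1000 bp, reached 1025 CPM per kb. The densest very broad peaks lay over Dnpep (12.03 CPM per kb), Rnf44 (11.4) and Cic (10.8), and over Ptma (10.5), the prothymosin alpha gene. The least dense lay over Plec (2.82), Spib and Pold1 (2.83), Gcgr and Mcrip1 (2.96), Man2b2 (3.00) and Wscd2 (3.04). The width limit cut through a continuous distribution. Just inside were peaks over Srgap3 (10002 bp, 44.6 CPM), Faap20 (10003 bp, 59.6 CPM), Fbf1 (10013 bp, 53.7 CPM), Slc12a9 (10016 bp, 50.4 CPM) and Crmp1 (10023 bp, 73.2 CPM). Just outside were peaks at Cibar2 (46.3 CPM), Rptor (9998 bp, 48.7 CPM), Pitpnm3 (9998 bp, 36.1 CPM), Nav2 (9990 bp, 66.1 CPM) and Spire2 with Tcf25 (9983 bp, 63.2 CPM).

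Which known genes did they cover? Of 27 genes for postsynaptic scaffolds and calcium signalling, 16 were touched, by 29 peaks, including Dlg4, Shank1, Shank2, Shank3, Camk2a, Camk2b and the NMDA receptor gene Grin1. Of 27 genes for synaptic vesicles and release, 10 were touched, by 17 peaks, including Rab3a, Vamp2, Unc13a, Bsn and Dnm1. The share over all autosomal protein-coding genes was 11.1%. That base takes genes of any length and expression, and none of the counts by list was corrected for either. Housekeeping genes had 12 of 27 touched, among them Gapdh, Eef2 and Actg1, and chromatin and DNA methylation enzymes had 11 of 27, in 23 peaks, among them Dnmt3a, Kdm6b and Hdac5. Immediate early genes had 15 of 47 touched, with Egr1, Junb, Fosb, Arc and Nr4a1 among them. Of the histone genes, 0 of 20 were touched. Lists of cell type markers were small, and no difference between them was tested. Among excitatory neuron markers 4 of 15 were touched, namely Camk2a, the vesicular glutamate transporter gene Slc17a7, Neurod2 and Fibcd1, a gene known from CA1. No inhibitory neuron marker was touched (0 of 16). Astrocyte markers had 2 of 15 (Gfap among them), oligodendrocyte markers 2 of 15 (Mbp and Myrf), precursors of oligodendrocytes 1 of 10 (Cspg4), microglia 1 of 15 (Aif1), endothelial cells 1 of 15 (Egfl7), and choroid plexus with ependyma 1 of 9 (Foxj1). These are counts of genes by peak width, and do not measure the share of a cell type.

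In all, 60 very broad peaks overlapped no protein-coding gene, and 40 of these overlapped a non-coding one. Malat1 and Neat1, abundant nuclear RNAs, shared a peak of 28434 bp with 174 CPM, and Miat, another nuclear RNA, lay in one of 24491 bp with 169 CPM. Of 919 autosomal miRNA genes with a RefSeq miRNA sequence entry used here, 135 (14.7%) lay inside 121 very broad peaks. The RefSeq gene annotation lists more, 1136, of which 150 (13.2%) overlapped a very broad peak. The neuronal miRNAs miR-132 and miR-212, made from a shared transcript, lay in a peak of chromosome 11 over Smg6, Hic1, Ovca2, Dph1 and Rtn4rl1. Mir9-1, a gene of miR-9, lay in a peak of chromosome 3. Their mature sequences are shown because these miRNAs are known from neurons and because the Mir9-1 peak had the lowest acute value of all members. They are RefSeq entries on GRCm38.p6 with the seed, bases 2 to 8, in capitals, and the first pair share a seed.
mmu-miR-132-3p: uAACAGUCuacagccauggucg
mmu-miR-212-3p: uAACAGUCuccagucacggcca
mmu-miR-9-5p: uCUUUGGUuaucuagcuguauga

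The libraries held between 26104576 and 55294838 counts in peaks. At this depth a very broad peak had a median mean count of 2997 per library, against 58.97 for all autosomal peaks. The coefficient of biological variation had a median of 0.0699 in very broad peaks and of 0.132 in all autosomal peaks, so smaller changes could be tested in the broad ones. The library of handled 0 min animal 45, a female of batch 4, stood apart. Peaks near gene ends took 42.1% of its counts, against 37.7 to 40.3% in the other 29 libraries. Its TMM factor was 0.875, against 0.970 to 1.031 in the others. On that scale its very broad peaks stood at 6.44 CPM per kb, against 5.40 to 5.99, although they took an ordinary 13.98% of its counts. Its CPM at single very broad peaks below carries this scaling. Results that moved strongly without it are given both ways below.

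Very broad peaks made up 9.71% of the length of all peaks and took 14.2% of all counts. The share changed little between animals. In handled mice it ran from 13.8 to 14.4% at 0 min (median 13.98%), and from 13.9 to 14.7% at 45 min (median 14.26%). In chronically restrained mice it ran from 13.61 to 14.34% at 0 min (median 14.19%) and from 13.95 to 14.50% at 45 min (median 14.39%). All 4 groups overlapped. The mean share was 14.08% ± 0.219 (SD, n = 16) at 0 min and 14.26% ± 0.215 (SD, n = 14) at 45 min. Within batches it was 14% and 14.12% in batch 1, 14.13% and 14.30% in batch 2, 14.27% and 14.46% in batch 3 and 13.94% and 14.08% in batch 4. The mean at 45 min was thus the higher in each of the 4 batches. The overall difference was below the SD of either time, while in batch 3 it was above the SDs of 0.127 at 0 min and 0.162 at 45 min. Batch means spanned more than this, from a mean of 13.98% in batch 4 to 14.36% in batch 3. No test was made of this sum over the peaks. For a single library the 95% Wilson interval of the share, which covers counting error only, was 13.60 to 13.62% for the lowest value. In peaks from 5000 bp to just under 10000 bp the mean share was also higher at 45 min, 12.88% against 12.78% at 0 min, again with no test.

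**Figure D2:**
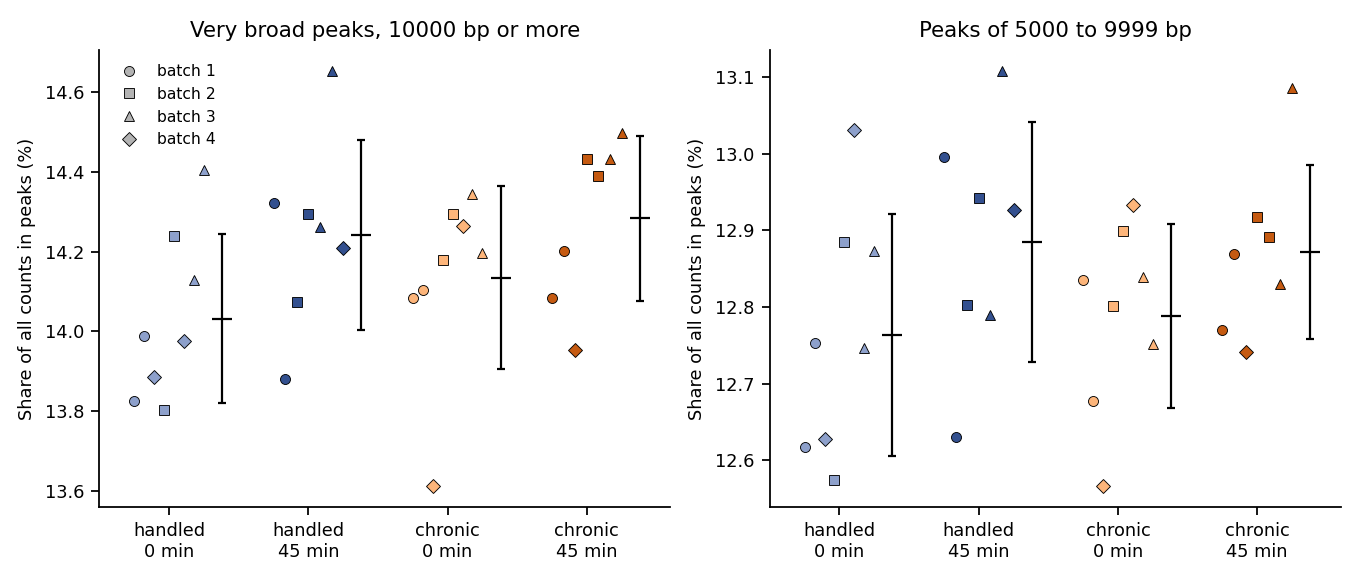
The share of each library's counts in very broad peaks (left) and in peaks from 5000 to under 10000 bp (right), by group; points are libraries, shapes are batches, and the bar is the mean with its SD. The vertical axes do not start at 0; the groups overlap, with medians for the very broad peaks of 13.98, 14.26, 14.19 and 14.39% from left to right.

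After acute restraint 4 very broad peaks rose and none fell. They were the peak over Hdgfl2, Plin4 and Plin5, a peak between Fkbp5 and Armc12, a peak within Ksr1 and a peak beside Anapc16, not far from Ddit4. Plin4, Fkbp5 and Ddit4 are known target genes of the glucocorticoid receptor. The test was edgeR's quasi-likelihood test of 45 min against 0 min, averaged over handled and chronically restrained mice, with sex and batch in the model and Benjamini-Hochberg adjustment over all 257143 peaks tested, and a call needed an adjusted p under 0.05. The 4 calls were 0.263% of the very broad peaks, and 0.116% of all tested peaks were called (0.0731% as risen and 0.0432% as fallen). Of the autosomal peaks from 5000 bp to just under 10000 bp, 0.182% were called, 7 peaks that all rose. From 1000 bp to just under 5000 bp 0.227% were called, 133 peaks of which 103 rose. Under 1000 bp the share was 0.0785%. The absence of falls was thus shared with the next narrower class, and differences between these shares were not tested. At an unadjusted p under 0.05 there were 93 very broad peaks (6.11%, against 7.17% of all peaks), of which 89 were higher and 4 lower at 45 min. Without animal 45 there were 194, of which 189 were higher. Calls over all peaks went up in that fit too, to 485 risen and 196 fallen. For this and the other alternative fits below, the share of all peaks at an unadjusted p under 0.05 is not given here. Their counts at that limit therefore cannot be set against all peaks. In bulk nuclei, more cells of a type and more open chromatin per cell cannot be told apart.

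The peak over Hdgfl2, Plin4 and Plin5 lay at chr17:56095359-56117927. Plin4 and Plin5 encode perilipins, which coat lipid droplets, and Hdgfl2 encodes a chromatin reader. In handled mice its level ran from 81.4 to 109 CPM at 0 min (median 99.0) and from 108 to 138 CPM at 45 min (median 122). In chronically restrained mice it ran from 87.7 to 111 CPM at 0 min (median 98.9) and from 109 to 130 CPM at 45 min (median 122). Of the 14 libraries at 45 min, 11 stood above all 16 at 0 min, and the lowest value, 81.4 CPM, was that of animal 45. The log2 change was 0.27 ± 0.035 (SE), with an adjusted p of 2.38e-06 in edgeR. It was 0.29 ± 0.049 in handled mice (adjusted p = 0.00255) and 0.24 ± 0.049 in chronically restrained mice (adjusted p = 0.0795). The difference between those effects was -0.05 ± 0.069 with an adjusted p of 1.0. Of the 4 called peaks it alone kept its call in each sex taken alone, with 0.27 in females and 0.26 in males. Of 30 other peaks within 50 kb, 20 had a positive value and 0 passed, with a median of 0.04.

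The second peak, at chr17:28515115-28529296, lay 28966 bp from Fkbp5 and 1565 bp from Armc12 and overlapped no protein-coding gene. Fkbp5 encodes a co-chaperone that lowers the hormone affinity of the glucocorticoid receptor. The peak holds the start of the long non-coding RNA E230001N04Rik, whose promoter is shown above, and part of another, Gm41506. In handled mice it ran from 75.8 to 106 CPM at 0 min (median 83.0) and from 93.2 to 107 CPM at 45 min (median 103). In chronically restrained mice the values were 77.7 to 97.9 CPM at 0 min (median 84.8) and 90.5 to 103 CPM at 45 min (median 97.8). All 14 libraries at 45 min were above the median of those at 0 min, and 14 of the 16 at 0 min were below every library at 45 min. The exceptions were animal 45, at 106 CPM, and chronic 0 min animal 3, at 97.9 CPM. The log2 change was 0.23 ± 0.036 (adjusted p = 8.7e-05, edgeR), and 0.25 ± 0.028 without animal 45. Handled mice gave 0.26 ± 0.051 (adjusted p = 0.0206) and chronically restrained mice 0.20 ± 0.051 (adjusted p = 0.477), with a difference of -0.06 ± 0.072 (adjusted p = 1.0). Of 27 other peaks within 50 kb, 24 had a positive value and 3 rose by the same test, with a median log2 value of 0.16.

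Ksr1 encodes a scaffold that holds together the kinases of the Ras to ERK pathway. The called peak, at chr11:79073154-79090516, lay inside the gene and held no gene start, and 4 very broad peaks in all touched Ksr1. It ran from 70.3 to 85.2 CPM in handled mice at 0 min (median 73.1), and from 75.01 to 86.2 CPM at 45 min (median 80.7). After chronic restraint it ran from 70.2 to 77.6 CPM at 0 min (median 73.5) and from 77.8 to 88.6 CPM at 45 min (median 84.0). Here the groups did not overlap in chronically restrained mice, where all 7 libraries at 45 min were above all 8 at 0 min by a narrow margin, and they overlapped in handled mice. The highest handled value at 0 min, 85.2 CPM, was that of animal 45. The next, 77.5 CPM in animal 40, was still above the lowest handled value at 45 min. The log2 change was 0.15 ± 0.033 (adjusted p = 0.0186, edgeR), from 0.12 ± 0.046 in handled mice and 0.19 ± 0.046 in chronically restrained mice, neither of which passed alone. Without animal 45 the averaged change was 0.16 ± 0.028. Among 32 other peaks within 50 kb, 31 had a positive value and 0 passed the test, with a median of 0.10.

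The fourth, at chr10:59974107-59984791, overlapped no protein-coding gene. It lay 2618 bp from Anapc16, a subunit gene of the ubiquitin ligase that drives cells out of mitosis, and 22337 bp from Ddit4, whose product restrains the growth kinase mTORC1. It ran from 35.3 to 39.8 CPM in handled mice at 0 min (median 37.6) and from 37.8 to 45.3 CPM at 45 min (median 41.3). After chronic restraint the range was 33.2 to 39.1 CPM at 0 min (median 36.4) and 38.98 to 44.3 CPM at 45 min (median 40.7). At 45 min 10 of 14 libraries were above all 16 at 0 min. The log2 change was 0.16 ± 0.036 (adjusted p = 0.0289, edgeR). Of 43 other peaks within 50 kb, 28 had a positive value and 0 passed, with a median of 0.05. The very broad peak over Ddit4 itself, with the promoter shown above, was also higher at 45 min, by 0.09 ± 0.035 on the log2 scale, and did not pass (adjusted p = 0.443).

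**Figure D3:**
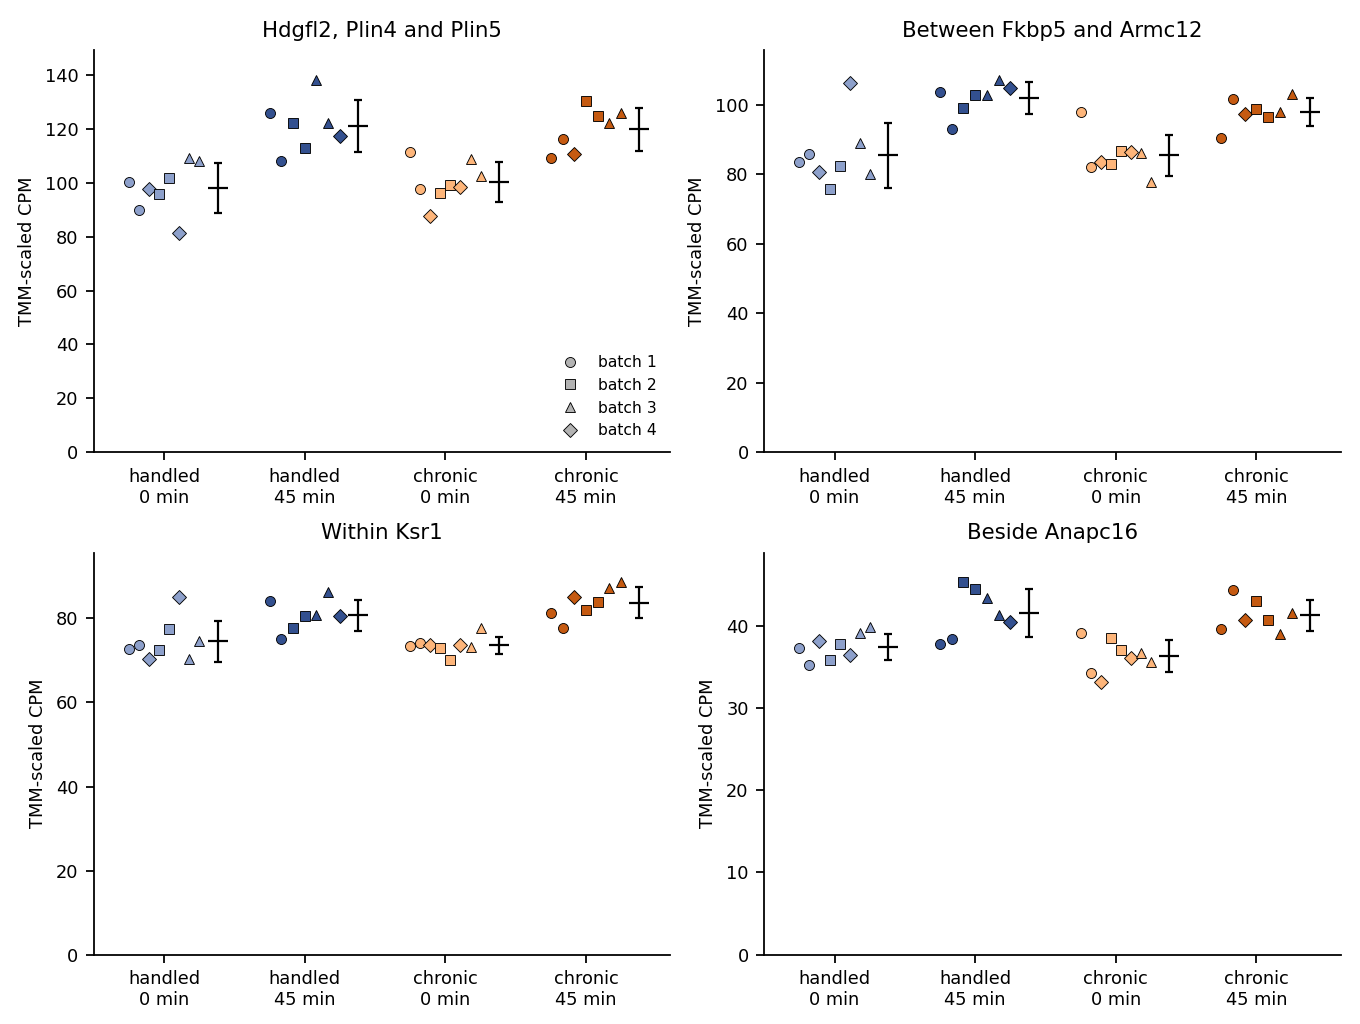
TMM-scaled CPM in each library for the 4 very broad peaks that rose after acute restraint, by group; shapes are batches and the bar is the mean with its SD. In each panel the group means at 45 min sit above those at 0 min, single libraries overlap, and animal 45 is the batch 4 point at 106 CPM among the handled 0 min libraries between Fkbp5 and Armc12.

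All 4 calls held with library totals in place of TMM scaling, with TMM factors computed without the very broad peaks, with no filter on low counts, with no sex and batch terms and with DESeq2. In each batch alone the 4 log2 values were positive. The peak over Hdgfl2, Plin4 and Plin5 gave 0.20, 0.32, 0.24 and 0.32 in batches 1 to 4, and that between Fkbp5 and Armc12 gave 0.16, 0.28, 0.30 and 0.19. The Ksr1 peak gave 0.12, 0.15, 0.21 and 0.14, and the peak beside Anapc16 gave 0.13, 0.22, 0.13 and 0.18. Without batch 2 the call of the Hdgfl2, Plin4 and Plin5 peak remained, and the others had adjusted p-values of 0.106, 0.476 and 0.763 in that order. Without batch 1, and likewise without batch 3, the first pair of calls remained, while the Ksr1 peak had adjusted p-values of 0.0928 and 0.253 and the peak beside Anapc16 of 0.119 and 0.118.

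The count of calls depended on 1 library. Without animal 45, 17 very broad peaks were called, of which 16 rose and 1 fell, and all 4 calls above were among them. Over all peaks, calls in that fit also went up, from 188 to 485 risen and from 111 to 196 fallen. The additional risen peaks in that fit, named after their values were seen, included Slc35c2 with Elmo2 (0.16 ± 0.027, adjusted p = 7.61e-05), both very broad peaks within Zbtb16 (0.18 ± 0.036 and 0.15 ± 0.032, adjusted p = 0.0102 and 0.00781), a second peak within Ksr1 (0.12 ± 0.030), and the Ddit4 peak (0.11 ± 0.027, adjusted p = 0.0228). The rest were Dpysl4 with Stk32c (0.12), the peak nearest Chst1 (0.14), Zmat5 with Cabp7 (0.12), a Gse1 peak (0.12), Hpca (0.12), Tesc with Fbxw8 (0.10) and Sh3bp5 (0.11). The peak that fell was the one with Mir9-1. Elmo2 encodes an activator of the small GTPase Rac, and Hpca encodes hippocalcin, a calcium sensor abundant in the hippocampus.

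With all 30 libraries, the next peaks by p were Slc35c2 with Elmo2 (0.14 ± 0.034, adjusted p = 0.0615) and the wider Zbtb16 peak at chr9:48730618-48746268 (0.16 ± 0.039, adjusted p = 0.0697). The other Zbtb16 peak had 0.14 ± 0.037 (adjusted p = 0.103). Zbtb16 encodes a zinc finger repressor induced by glucocorticoids in several tissues. Its wider peak ran from 98.1 to 131 CPM in handled mice at 0 min (median 108) and from 107 to 133 CPM at 45 min (median 120). After chronic restraint it ran from 90.2 to 131 CPM (median 99.4) and from 109 to 128 CPM (median 117). All groups overlapped, animal 45 (131 CPM) had the highest handled value at 0 min, chronic 0 min animal 3 the highest of its group, and all 14 libraries at 45 min were above the median at 0 min. Around the wider peak 38 of 39 other peaks within 50 kb had a positive value, and 2 of them rose. Around the other, 30 of 32 did, and 3 rose.

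The lowest acute value belonged to the peak at chr3:88212987-88234432, which holds Mir9-1 and lies 8442 bp from Rhbg. In handled mice it ran from 134 to 167 CPM at 0 min (median 139) and from 121 to 140 CPM at 45 min (median 129). After chronic restraint the values were 133 to 145 CPM (median 141) and 126 to 135 CPM (median 134). The groups overlapped, 1 of 14 libraries at 45 min was above the median at 0 min, and animal 45 had the highest value of all, 167 CPM. The log2 value was -0.11 ± 0.032 with an adjusted p of 0.167 in edgeR, and -0.10 ± 0.026 without animal 45 (adjusted p = 0.0485). The peak with miR-132 and miR-212, whose transcript responds to neuronal activity, was at 0.01 ± 0.031. The next lowest were Mical2 (-0.09), St8sia5 (-0.08), Hdac5 (-0.08) and the peak nearest Acta1 (-0.07), and none of them passed.

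Beyond single peaks, the very broad peaks had slightly higher values at 45 min. Their median log2 change was 0.02, and 1126 of 1521 (74.0%) were positive, against a median of -0.0025 and 48.99% over all tested peaks. Without animal 45 the median was 0.03 and 1287 (84.6%) were positive. Changes were small, with 5% and 95% points of -0.03 and 0.07 and a median standard error of 0.034. The corresponding points over all tested peaks were -0.20 and 0.17, with a median standard error of 0.10. The most covered 1% of all peaks included 1423 very broad ones and 1149 under 10000 bp, and of the latter 40.8% were positive with a median of -0.0066. Among peaks from 5000 bp to under 10000 bp, whatever their coverage, 64.2% were positive with a median of 0.0135. Part of the lean was thus shared with the next narrower width class. Within batches the median of the very broad peaks was 0.02, 0.02, 0.04 and -0.01 in batches 1 to 4, with 69.6, 67.6, 81.7 and 41.6% positive. Batch 4 had 1 library per history at 45 min. Among females 53.1% were positive and among males 86.6%. Animal 45 is 1 of the 4 handled females at 0 min, and the share in females was not computed without it. With each library's share of counts in the top 1% of peaks by coverage added to the model, 55.6% were positive and 30 were called as risen and 5 as fallen, while 500 of all peaks were called as risen and 1266 as fallen. That top 1% includes the 1423 very broad peaks above, so the covariate holds much of their own signal and can take out a shared shift. The 55.6% is therefore no separate check. Values of neighbouring peaks share their libraries and scaling, so these shares are a description.

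**Figure D4:**
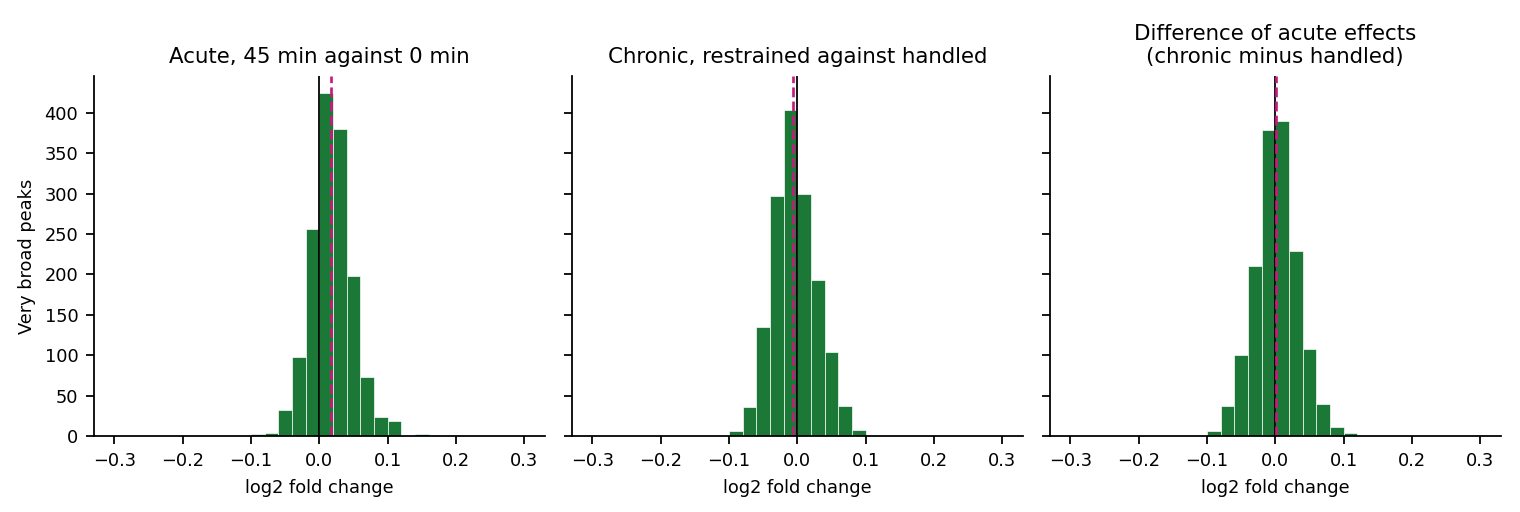
The number of very broad peaks by log2 fold change, in bins of 0.02, for the acute effect averaged over both histories, the chronic effect averaged over both times and the difference of acute effects between histories. The solid line marks 0 and the dashed line the median, which is 0.02 for the acute effect, -0.0061 for the chronic effect and 0.0014 for the difference.

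By gene list, the glucocorticoid receptor targets had the highest acute median among the very broad peaks. The lists were chosen with earlier results of these data known, so this rank is a description. Of 29 such genes in the annotation, 7 were touched, by 8 peaks: Plin4, Zbtb16 with 2, Ddit4, Arrdc2, Hif3a, Per1 and Lcn2. Of these 8 peaks, 1 rose, 6 were positive and the median log2 change was 0.09. Arrdc2, which encodes an arrestin-like protein, had 0.08 ± 0.034 (adjusted p = 0.547), Hif3a 0.02 ± 0.033, Per1, a clock gene, -0.0006 ± 0.032 and Lcn2, which encodes lipocalin 2, -0.0064 ± 0.033. The 7 peaks other than that of Plin4 did not pass.

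Immediate early genes encode fast-responding factors of active neurons. Of the 15 peaks over them 0 passed, 7 were positive and the median was -0.0006. Egr1 had 0.0011 ± 0.034 from a peak of 24805 bp and 210 CPM, Junb -0.0052 ± 0.031, Arc -0.03 ± 0.036, Fosb -0.02 ± 0.035 and Nr4a1 0.02 ± 0.036. Gadd45b had the highest value of the list, 0.06 ± 0.032 (adjusted p = 0.754).

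Peaks over synaptic genes were mostly a little above 0. For postsynaptic scaffolds and calcium signalling, 26 of 29 peaks had positive values, the median was 0.02 and values ran from -0.02 to 0.07, and none passed. For vesicles and release, 13 of 17 were positive with a median of 0.02, from Napa at -0.04 to a Dnm1 peak at 0.08, and none passed. These medians were close to that of all very broad peaks, 0.02. Chromatin enzymes had 16 of 23 positive (median 0.01), housekeeping genes 7 of 12 (median 0.0018), nuclear long non-coding RNAs 3 of 6 (median 0.0001), heat shock genes 2 of 3 (median 0.01) and neurodevelopmental transcription factors 4 of 8 (median -0.0069), with no call in any. Excitatory neuron markers had 5 of 7 positive with a median of 0.02, and their summed level ran from 860 to 1094 CPM in handled mice at 0 min, 899 to 971 at 45 min, 888 to 950 in chronically restrained mice at 0 min and 899 to 982 at 45 min. The summed level of the 2 astrocyte peaks ran from 105 to 121 CPM and of the 3 oligodendrocyte peaks from 162 to 186 CPM over all 30 libraries. All 4 groups overlapped for each of these markers.

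**Figure D5:**
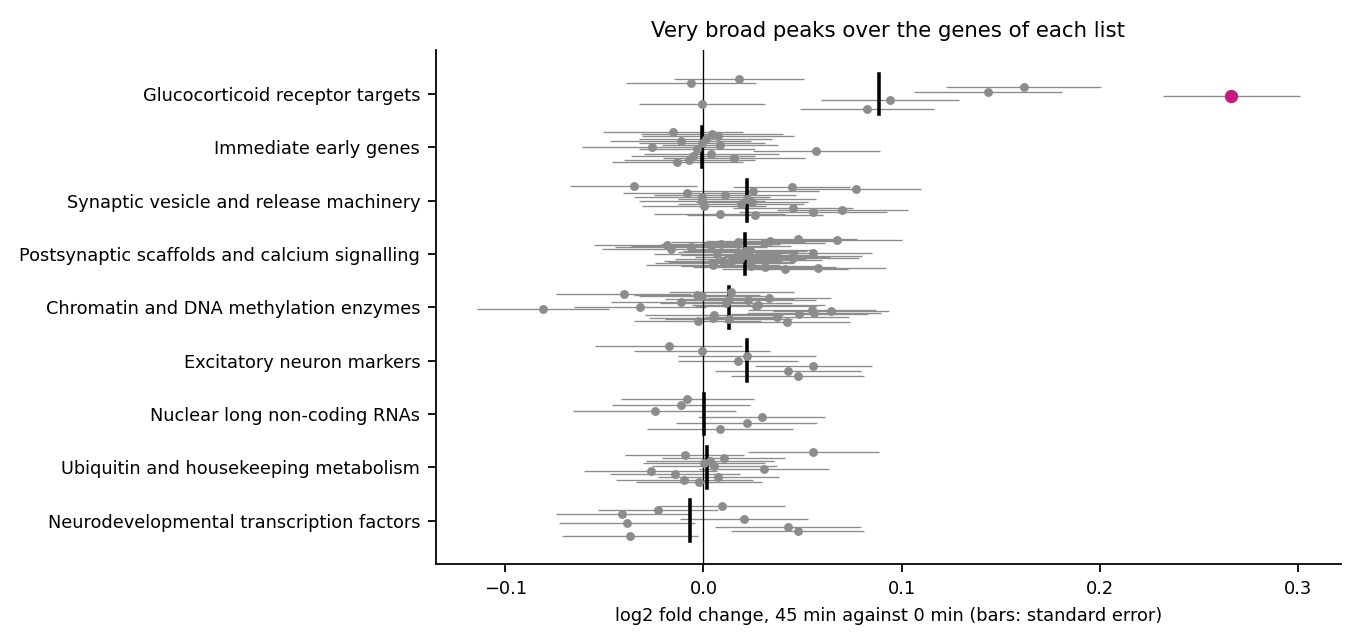
Log2 fold change at 45 min against 0 min, averaged over both histories, with its standard error, for each very broad peak over a gene of 9 lists; black bars are medians and the coloured point passed the test. The receptor targets have a median of 0.09 and the other lists lie between -0.0069 and 0.02.

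Handled and chronically restrained mice were then taken apart. In handled mice 2 very broad peaks rose, those over Hdgfl2, Plin4 and Plin5 and between Fkbp5 and Armc12, and 45 had an unadjusted p under 0.05 (5.52% of all peaks did). Of all peaks 0.0109% were called, 0.00972% as risen and 0.00117% as fallen. In chronically restrained mice 0 passed in edgeR, while 0.00272% of all peaks were called. At an unadjusted p under 0.05 there were 42 (4.73% of all peaks), all of them higher at 45 min, and DESeq2 called 1. The smallest adjusted p there was 0.0795, that of the Hdgfl2, Plin4 and Plin5 peak. Without animal 45 the counts were 3 and 3, while over all peaks 102 rose and 6 fell in handled mice and 38 rose and 9 fell in chronically restrained mice. The median log2 change was 0.02 in either history, with 1078 of 1521 positive in each. This likeness rested on animal 45, since without it the median was 0.04 with 1329 positive in handled mice and 0.02 with 1032 positive in chronically restrained mice. The counts at an unadjusted p under 0.05 were then 147 and 82.

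The difference between the 2 acute effects was tested as an interaction and 0 very broad peaks passed, with 0% of all peaks called; 1 had an unadjusted p under 0.05 (3.03% of all peaks), and DESeq2 called 0. Without animal 45 there were 16, of which 2 were positive, the median was -0.02 in place of 0.0014, and 28.9% in place of 51.5% of all very broad peaks were positive. The peak with all libraries lay over Pi16 and Mtch1, a mitochondrial carrier gene, with a difference of 0.14 ± 0.065. Mpped1 (0.11 ± 0.072) and Srcin1 (0.11 ± 0.074) came next. The standard error of the difference had a median of 0.067.

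For chronic against handled mice no very broad peak passed. At 0 min, 0 were called (0% of all peaks), with 9 at an unadjusted p under 0.05 (0.592%, against 4.59% of all peaks). That number was 39 without animal 45, with 37 higher, and 61 with library totals, with 58 higher. Among the smallest p-values were those of Mink1 with Chrne (0.12 ± 0.047) and Micalcl (0.11 ± 0.048), each with an adjusted p of 0.997. At 45 min, 0 were called (0% of all peaks), with 8 at an unadjusted p under 0.05 (3.78% of all peaks), which became 30 without animal 45 and 49 with library totals. The leading peaks were Fen1 with Tmem258 and Myrf (0.13 ± 0.052), Srcin1 (0.13 ± 0.054) and Mybpc3 with Madd (0.12 ± 0.054). Myrf encodes the transcription factor that drives myelin genes.

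Averaged over both times, 0 were called as well (0% of all peaks), with 43 at an unadjusted p under 0.05 (5.44% of all peaks), 25 of them higher and 18 lower (75 without animal 45 and 145 with library totals), and DESeq2 called 0 in each of these 3 comparisons. Mink1 with Chrne gave 0.11 ± 0.034 (adjusted p = 0.859), Mybpc3 with Madd 0.10 ± 0.037 and 2410002F23Rik with Acp4 0.10 ± 0.034. The 5% and 95% points of the chronic values were -0.05 and 0.05. The sign of the bulk of these values depended on the scaling and on animal 45: 42.3% were positive with TMM, 61.2% with library totals and 62.5% without animal 45. Within batches 1 to 4 it was 60.5, 69.5, 51.2 and 10.1%. At 45 min batch 4 held 1 handled male and 1 chronically restrained female, so history and sex differed together there. The 4 peaks that rose after acute restraint had averaged chronic values of 0.0098 ± 0.034 (Hdgfl2, Plin4 and Plin5), -0.03 ± 0.036 (between Fkbp5 and Armc12), 0.01 ± 0.033 (Ksr1) and -0.03 ± 0.036 (beside Anapc16).

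Between the sexes, 0 very broad peaks passed in edgeR, against 0.035% of all peaks (0.0327% higher and 0.00233% lower in females), and DESeq2 called 0. The shares of all peaks in this paragraph include the sex chromosomes, with 2026 peaks on the X, while the very broad peaks are autosomal by rule. They are therefore not a like comparison for the sexes, and the share called on autosomes alone is not given here. At an unadjusted p under 0.05 there were 30 (5.37% of all peaks), all higher in females. The median of females against males was 0.03, and 1379 (90.7%) were positive. This share was 66.01% with library totals, 56.7% with that same covariate in the model, 81.1% without animal 45 and 33.4% in batch 3 alone. The covariate is built largely from the very broad peaks, so the value with it is no separate check. The mean share of counts was 14.22% ± 0.179 (SD, n = 15) in females and 14.11% ± 0.271 (SD, n = 15) in males. The acute effect differed between sexes in 0 very broad peaks (0.000389% of all peaks), with 8 at an unadjusted p under 0.05 (3.72% of all peaks). The median difference, females minus males, was -0.04, and 213 of 1521 were positive. Animal 45, a female, was in this fit, and the difference was not computed without it.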

How the data were processed

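Bulk ATAC-seq was measured in 30 libraries. Peaks were counted by the authors, who deposited 1 table of whole-number counts per peak and library. Trimmomatic, Bowtie2, Picard, Genrich 0.6.1 and GRCm38 are named per the submitters' processing notes; whether reads, fragments or cuts were counted, and how peaks were merged into regions, is not given in the sources used here, and both affect widths and counts. The table also had 2 columns that matched no sample and were not used.

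Peaks of at least 10000 bp on chromosomes 1 to 19 were taken, by end minus start. Counts were TMM-scaled and fitted with edgeR 4.0.16 (robust quasi-likelihood; group, sex and batch) in R 4.3.3 over 257143 peaks, after filterByExpr removed 6, with Benjamini-Hochberg adjustment over all of them. DESeq2 1.42.0, other scalings, widths and left-out libraries were alternatives. Genes, promoters and miRNAs came from RefSeq tables of GRCm38.p6. On simulated data of 40176 peaks, 100% of 100 changes of log2 0.4 and 40% of 100 changes of log2 0.2 were recovered, with 7 false calls. The simulation gave every peak the same biological variation, larger than the median of the very broad peaks, and no batch or sex effects. These shares therefore do not measure how well changes in the very broad peaks could be found. Total counts ran from 26104576 to 55294838, and intervals cover counting error only.

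The members and gene lists were chosen with earlier results of these data known. The text names every peak called in a stress comparison or, where none was called, the 3 with the smallest p, then the 10 widest, the 10 with the highest CPM, the 5 highest and lowest per kb, the 5 on either side of the width limit, and up to 4 per gene list. Other peaks named were chosen after their values were seen. Some peaks and genes that meet this rule are not reported here.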

Additional observations from a re-analysis of the deposited data

Results flagged for a closer look

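Single libraries stood apart in 4 of 56 groups checked, over the share of counts and 13 peaks; chance marks about 1 group in 20. The share of counts in very broad peaks was 13.6% in chronic 0 min animal 24, while the remaining 7 of that group ran from 14.1 to 14.3%. The peak between Fkbp5 and Armc12 was at 106 CPM in handled 0 min animal 45, against 75.8 to 89.1 CPM in the rest of its group. After TMM scaling the very broad peaks of animal 45 were also high as a set, at 6.44 CPM per kb. The same peak was at 97.9 CPM in chronic 0 min animal 3, against 77.7 to 86.6 CPM in the rest. The peak over Mybpc3 and Madd was at 50.0 CPM in handled 45 min animal 59, against 38.1 to 42.0 CPM in the rest.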

How the results depend on the processing

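Of the main results, 110 values under an alternative stayed within 1.5 times the reported count or the spread between libraries and 33 did not. The 4 acute calls averaged over both histories became 11 with total count scaling, 35 with the share of the most covered peaks as a covariate, 17 without animal 45, 8 with DESeq2, 1 without batch 2, 2 without batch 3, 7 without batch 4, 0 in batch 1, 3 or 4 alone, 1 in females, 2 in males and 2 at 15000 bp or more. The 2 calls in handled mice became 0 without batch 1, 2 or 3, 0 in batch 1, 3 or 4 alone, 1 in batch 2 alone, 0 in females, 0 in males and 1 at 15000 bp or more. The count of 0 in chronically restrained mice became 2 with total count scaling, 3 with the covariate, 3 without animal 45, 1 in batch 2 alone, 1 without batch 4 and 1 with DESeq2. The chronic effect at 45 min gave 1 call in batch 2 alone. The cause of these shifts was not tested, beyond the smaller number of libraries in fits of part of the data. The median share of 14.2% became 17.8% at 8000 bp and 8.68% at 15000 bp or more, and the 2299 genes became 1328 at 15000 bp or more. Of values for named peaks, 298 kept direction and side of the threshold, 12 passed newly, 43 no longer passed and 4 reversed, all in batch 4 alone: at 45 min the chronic values of Fen1 with Tmem258 and Myrf (-0.0035) and Srcin1 (-0.0064), and the interaction of Mpped1 (-0.060) and Srcin1 (-0.11). Batch 4 had 1 library of each history at 45 min, a handled male and a chronically restrained female. No paired analysis was possible because the labels give each animal its own number.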
